A study of Homo sapiens with 6 samples.

Results

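HCT116 is an established human cell line from a colorectal carcinoma. Its form resistant to 5-fluorouracil and its parental (wild-type) form were compared after each had received an siRNA against EHMT2. The comparison rests on 2 of the 6 RNA-seq libraries of the series, 1 from resistant cells with EHMT2 siRNA and 1 from parental cells with EHMT2 siRNA, picked by their labels. The other 4 libraries are resistant and parental cells with a control siRNA, and resistant and parental cells that were not transfected, again with 1 library a group. The series' design text mentions biological replicates, and libraries beyond these 6 were not analysed here. No p-value, standard deviation or count of changed genes can be given from 1 library a side, so all values below describe these libraries. How resistance was selected, whether the resistant cells are a clone or a pool, the siRNA sequences, and the dose and time of transfection were not stated in the labels. The untransfected resistant library carries a shorter library name (HCT116-5fu) than the transfected ones (HCT1165fuR), and whether both names stand for the same resistant cells is not stated.

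5-Fluorouracil resembles uracil, and in the cell it becomes nucleotides that inhibit thymidylate synthase and enter RNA and DNA. EHMT2 encodes G9a, an enzyme that methylates lysine 9 of histone H3, a mark of silent chromatin, mostly as a dimer with its paralogue EHMT1. The series title places EHMT2 in the chromatin state of drug resistant cells. A comparison of both lines after knockdown shows how far they stand apart when each has less of this enzyme.

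Of 19942 gene symbols, 11937 reached 1 FPKM in 1 or both of the 2 libraries and are called measured. Differences are log2 ratios of FPKM with 1 added, resistant over parental, which understates differences between low genes. On this scale 184 measured genes (1.54%) were at least 2-fold higher in resistant cells and 185 (1.55%) were at least 2-fold lower, 3.09% in both directions together. Ratios above 0 were found for 45% of measured genes and ratios below 0 for 55%, with a median of -0.05. At 4-fold, 14 genes were higher and 9 lower. The nearest genes at the limits were TBC1D5 (log2 ratio 1.001) inside and APOL6 (0.996) outside for higher, EPS8L2 (-1.0006) inside and THAP2 (-0.9995) outside for lower, and NUDT13 inside and DNAJC18 outside the limit of 1 FPKM.

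The FPKM of the resistant library summed to 370899 and that of the parental library to 360695. Messages of mitochondrial DNA took 12.4% of this sum in resistant cells and 18.0% in parental cells. With those genes left out and the libraries rescaled to the same sum, the median over all genes moved to -0.17, with 130 genes higher and 331 lower. Higher genes were then 28.2% of those at least 2-fold apart, against 49.9% before, and 61.3% after quantile normalisation. The level of a gene also moved with its ratio. Genes of at least 100 FPKM had a median ratio of 0.24, with 17 of 551 at least 2-fold higher and 3 lower, whereas genes between 1 and 5 FPKM had a median of -0.13, with 50 of 3291 higher and 81 lower. The part of either in the other results was not tested.

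**Figure D1:**
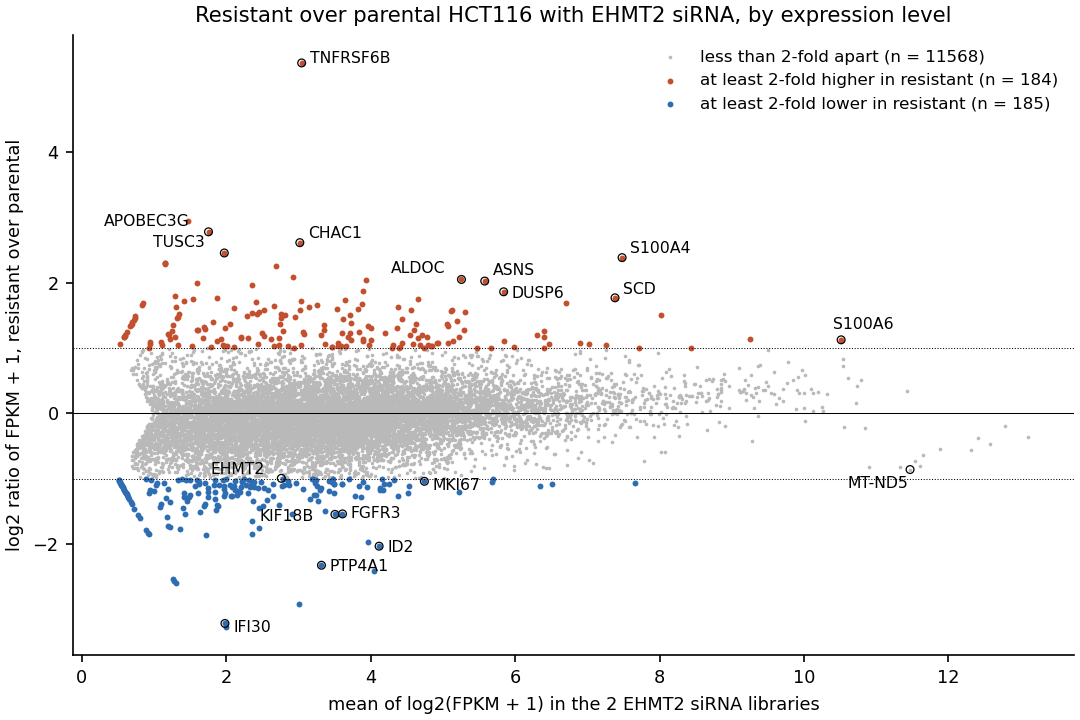
Log2 ratio of FPKM + 1, resistant over parental cells with EHMT2 siRNA, against the mean log2(FPKM + 1) of both libraries, 1 point a measured gene. Red points are the 184 genes at least 2-fold higher in resistant cells, blue points the 185 at least 2-fold lower, and TNFRSF6B stands highest at 5.37.

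EHMT2 itself (chr6:31879759-31897687, build GRCh38) was listed at 3.80 FPKM in resistant cells and 8.58 FPKM in parental cells with EHMT2 siRNA. With control siRNA it was at 19.5 FPKM in resistant and 31.7 FPKM in parental cells, and in untransfected cells at 27.3 FPKM in resistant and 19.8 FPKM in parental cells. Both knockdown libraries thus held less EHMT2 message than the 4 other libraries, and the resistant one held the least, with a log2 ratio between lines of -0.995 that lay just short of 2-fold. The lines were therefore not compared at an equal residual level of EHMT2, and what this adds to other differences was not tested. EHMT1 was at 15.5 FPKM in resistant and 19.3 FPKM in parental cells with EHMT2 siRNA (ratio -0.29). SUV39H1, another methyltransferase for the same histone residue, was at 0.975 FPKM in resistant and 2.05 FPKM in parental cells (-0.63). DNMT1, the maintenance DNA methyltransferase, was at 20.05 and 33.2 FPKM in resistant and parental cells (-0.70). Of 27 measured writers, erasers and readers of this mark, 0 were at least 2-fold apart and 22 had a ratio below 0, with a median of -0.16. The largest positive ratios in that list were 0.42 for KDM4A, a demethylase that shares 48.5% of its exonic bases with other genes, 0.34 for CDYL and 0.11 for TASOR.

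Stress response genes under the transcription factors ATF4 and CHOP had the highest median ratio of the 49 gene lists. Cells translate ATF4 when amino acids run short or unfolded proteins build up, and ATF4 then raises amino acid transport and synthesis genes, with CHOP (DDIT3) among its targets. Of 29 measured members 12 were at least 2-fold higher in resistant cells, 0 were lower, and 28 had a ratio above 0, with a median of 0.67. Promoter stretches with a match to TGATGNAA, a core of the site that ATF4 binds, are shown for 3 of these genes as an example of sequence within the group. Each line gives bases upstream of the RefSeq start (GRCh38.p14), on the strand of the gene, with the match, on either strand, in capitals.
CHAC1 (chr15:40953252-40953279, plus strand): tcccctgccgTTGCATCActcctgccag
ASNS (chr7:97872459-97872486, minus strand): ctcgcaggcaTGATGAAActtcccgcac
ATF3 (chr1:212565206-212565233, plus strand): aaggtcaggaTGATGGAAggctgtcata
The match ends 201 bases before the start in CHAC1, 60 bases in ASNS and 183 bases in ATF3. The CHAC1 and ASNS stretches also lie in exons of longer GENCODE 29 transcripts of these genes. A match was present in the 250 bases before the start of 3 of the 27 members with a promoter sequence (11.1%), of 1.26% of measured genes with one and of 3.19% of 27305 promoters in all. It was also present in 3.13% of genes at least 2-fold higher and 3.17% of genes at least 2-fold lower in resistant cells.

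CHAC1, which degrades glutathione, was at 19.1 FPKM in resistant and 2.27 FPKM in parental cells with EHMT2 siRNA, at 23.01 FPKM in resistant and 3.81 FPKM in parental cells with control siRNA, and at 6.33 FPKM in resistant and 19.3 FPKM in parental untransfected cells. ASNS, asparagine synthetase, was at 95.5 and 22.7 FPKM in resistant and parental cells with EHMT2 siRNA, 144 and 39.2 FPKM in resistant and parental cells with control siRNA, and 65.5 and 133 FPKM in resistant and parental untransfected cells. TRIB3, a pseudokinase induced by ATF4, was at 23.8 and 7.15 FPKM in resistant and parental cells with EHMT2 siRNA, 45.4 and 12.3 FPKM in resistant and parental cells with control siRNA, and 13.6 FPKM in resistant and 77.0 FPKM in parental untransfected cells. In all 3 genes the resistant library was the higher one in both siRNA pairs and the lower one without transfection. The log2 ratio with EHMT2 siRNA was 2.62 for CHAC1, 2.03 for ASNS and 1.61 for TRIB3. ASNS shares 44.6% of its exonic bases with another annotated gene, DDIT3 39.6% and DDIT4 41.2%, so reads of their partners may be counted with them.

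The other members at least 2-fold higher with EHMT2 siRNA were DDIT3 (59.5 FPKM in resistant and 19.2 FPKM in parental cells, ratio 1.58), the mTORC1 inhibitor DDIT4 (1.55), the mitochondrial PEP carboxykinase PCK2 (1.51), the AP-1 repressor JDP2 (1.51), the cystine transporter SLC7A11 (1.38), the alanine aminotransferase GPT2 (1.24), the neutral amino acid transporter SLC1A4 (1.21), STC2 (1.15) and CEBPG, a partner of ATF4 (1.05). ATF5 (-0.03), SLC7A5 (0.02) and SLC3A2 (0.15) stood lowest, the last 2 of these forming the large neutral amino acid exchanger. Of all genes measured in the control siRNA pair, 1.6% were at least 2-fold higher and 0.96% lower in resistant cells (2.56% together), and 48.1% had a ratio above and 51.9% below 0. In that pair 14 of the 29 members were at least 2-fold higher and the median was 1.00. In the untransfected pair 3.48% of measured genes were higher and 3.92% lower (7.4% together), and 56.3% had a ratio above and 43.7% below 0. There 0 of the 29 members were at least 2-fold higher, 7 were at least 2-fold lower and the median was -0.60.

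**Figure D2:**
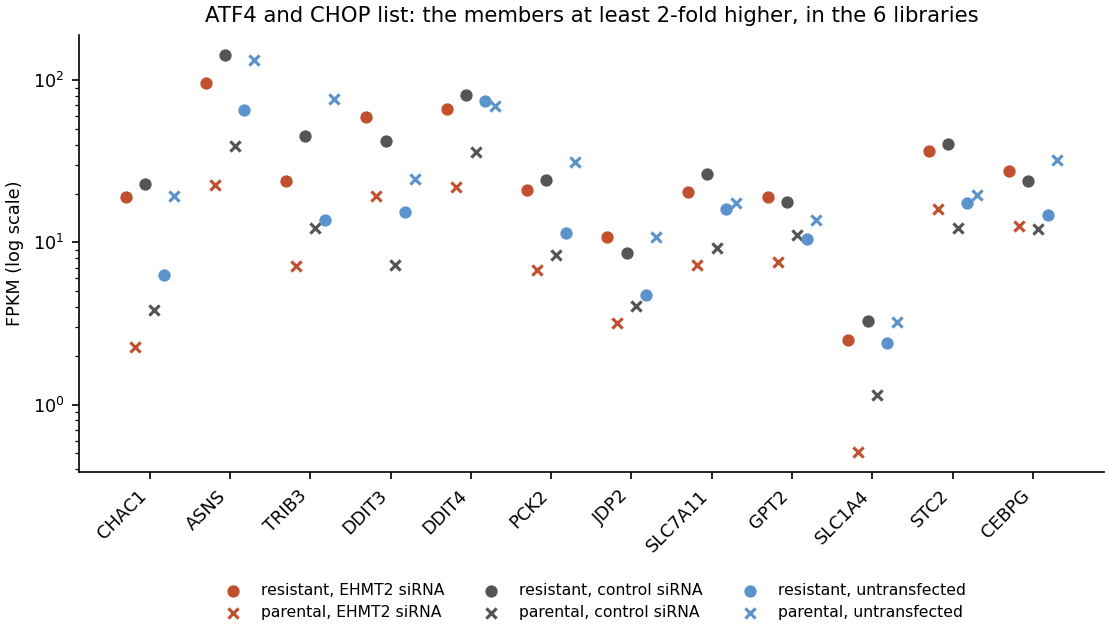
FPKM on a log scale of the 12 ATF4 and CHOP list members at least 2-fold higher in resistant cells with EHMT2 siRNA, in each of the 6 libraries (circles resistant, crosses parental). In the red EHMT2 siRNA pair and the grey control siRNA pair the circle lies above the cross for each gene, while in the blue untransfected pair it lies below for all but DDIT4.

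Amino acid supply genes outside that list were also mostly higher in resistant cells with EHMT2 siRNA. PHGDH, the first enzyme of serine synthesis, was at 58.8 FPKM in resistant and 21.4 FPKM in parental cells with EHMT2 siRNA (ratio 1.42), and PSAT1, the next one, at 125 FPKM in resistant and 55.2 FPKM in parental cells (1.17). These were the 2 members at least 2-fold higher among 12 measured serine, glycine and one-carbon genes, whose median was 0.48, and SHMT1 (-0.46), the cytosolic serine hydroxymethyltransferase, was among the lowest. The median of the same 12 genes was 0.19 with control siRNA and -0.33 without transfection. Among 20 aminoacyl-tRNA synthetases, which load amino acids onto tRNA, CARS (70.8 FPKM in resistant and 34.7 FPKM in parental cells, 1.01) and YARS (118 and 58.6 FPKM, resistant and parental, 1.00) were at least 2-fold higher, AARS was just short of it at 0.99, and HARS stood lowest at -0.22. HERPUD1, an endoplasmic reticulum protein of the degradation machinery, was at 58.7 FPKM in resistant and 19.2 FPKM in parental cells (1.56). XBP1, the factor of the IRE1 branch of the unfolded protein response, was at 26.8 and 12.9 FPKM in resistant and parental cells (1.00). The 23 measured chaperone and degradation genes of that compartment had a median of 0.13, with HSPA5 (BiP) at 0.58 and SDF2L1 lowest at -0.63. EIF4EBP1, a repressor of cap-dependent translation and an ATF4 target, was at 37.0 FPKM in resistant and 17.9 FPKM in parental cells (1.01).

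Cholesterol synthesis and uptake genes were higher in resistant cells in each of the 3 pairs. SREBP2 drives these genes, and it leaves the endoplasmic reticulum together with SCAP when low sterol frees SCAP from INSIG. Of 29 measured members 5 were at least 2-fold higher with EHMT2 siRNA, 0 were lower and 27 had a ratio above 0, with a median of 0.54, against medians of the same genes of 0.70 with control siRNA and 0.87 without transfection. INSIG1 was at 34.6 FPKM in resistant and 12.1 FPKM in parental cells with EHMT2 siRNA, 43.1 and 11.9 FPKM in resistant and parental cells with control siRNA, and 24.5 and 5.45 FPKM in resistant and parental untransfected cells. Its lowest resistant value exceeded its highest parental value, so the lines did not overlap over the 6 libraries. INSIG1, and SCD, ABCC2, APOBEC3G, NRP1 and SERPINA1 below, were named partly for keeping their side in all 3 pairs. Such a separation of the lines is thus partly built in, and its share over all genes was not counted. INSIG1 had a ratio of 1.44 with EHMT2 siRNA, STARD4, a sterol carrier, had 1.07, the reductase DHCR7 1.05 and the sterol oxidase MSMO1 1.03. MSMO1 was just under 2-fold (0.998) when the libraries were rescaled to the same sum. The lowest members were INSIG2 (-0.39), SCAP (-0.23) and MYLIP (0.01), and 25 of the 29 were above 0 in all 3 pairs. Among all 8646 genes at 5 FPKM or more in either EHMT2 siRNA library, 1324 were above 0 in all 3 pairs. The SREBP motif TCACNCCAC was found before the start of 1 of 22 members with a promoter sequence, SREBF2, and of 0.875% of all promoters.

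SCD, which makes monounsaturated fatty acids, stood apart from the other fatty acid genes. It was at 307 FPKM in resistant and 89.4 FPKM in parental cells with EHMT2 siRNA, 756 and 188 FPKM in resistant and parental cells with control siRNA, and 650 and 152 FPKM in resistant and parental untransfected cells, so that here too the lines did not overlap. Its ratio was 1.77 with EHMT2 siRNA, against 1.999 with control siRNA and 2.09 without transfection. No other of the 21 measured fatty acid genes was 2-fold apart with EHMT2 siRNA. ACSS2, which makes acetyl-CoA from acetate, followed at 0.75 and SREBF1 at 0.73, and MLXIPL (-0.60), ACACA (-0.39) and ACACB (-0.32), the last 2 being acetyl-CoA carboxylases, stood lowest, with a median of 0.20.

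**Figure D3:**
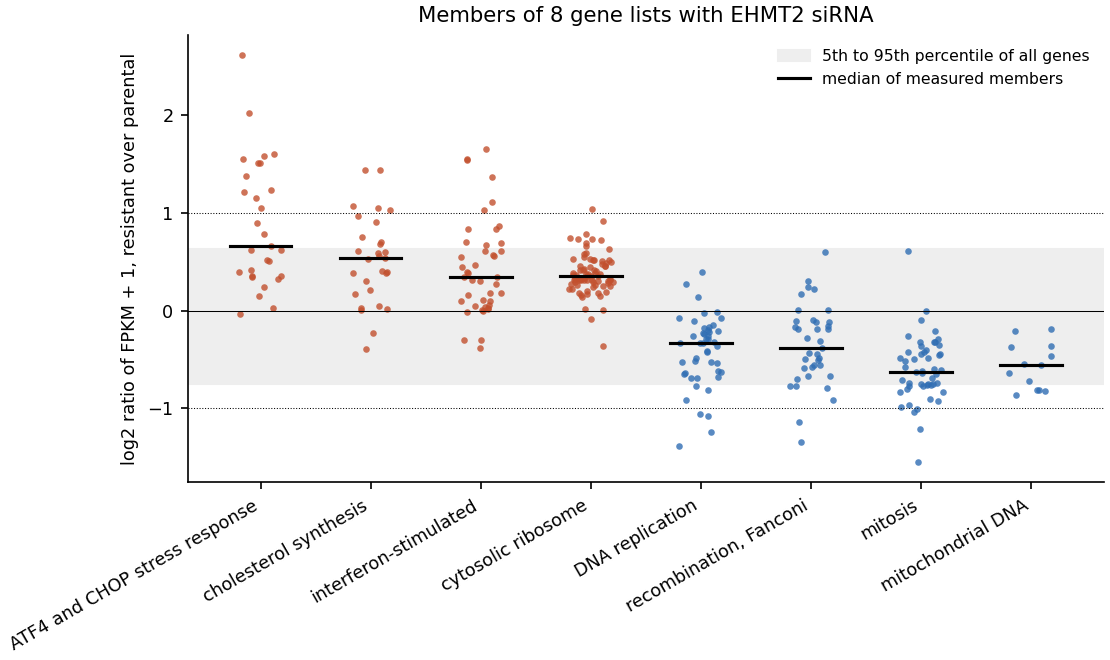
Log2 ratio of FPKM + 1, resistant over parental with EHMT2 siRNA, for each measured member of 8 gene lists (points), with the median as a bar and the range between the 5th and 95th percentile of all measured genes in grey. The stress response median lies at 0.67 and the mitotic median at -0.62, and 49 of 50 mitotic genes lie below 0.

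Cell division genes were lower in resistant than in parental cells with EHMT2 siRNA. Of 50 measured mitotic kinases, kinetochore and spindle genes, 0 were at least 2-fold higher, 4 were at least 2-fold lower and 49 had a ratio below 0, with a median of -0.62. In bulk RNA, fewer dividing cells and less of these messages per cell cannot be told apart. KIF18B, a kinesin that shortens microtubules, was at 5.64 FPKM in resistant and 18.4 FPKM in parental cells with EHMT2 siRNA (-1.55). It was at 10.1 and 17.3 FPKM in resistant and parental cells with control siRNA, and at 19.7 and 10.3 FPKM in resistant and parental untransfected cells. The proliferation marker MKI67 was at 17.7 FPKM in resistant and 37.4 FPKM in parental cells with EHMT2 siRNA (-1.04), 29.7 and 59.7 FPKM in resistant and parental cells with control siRNA, and 48.8 and 26.2 FPKM in resistant and parental untransfected cells. Both genes were lower in the resistant library in each siRNA pair and higher in it without transfection. The centromere protein CENPM had a ratio of -1.21 and the kinase PLK1 of -1.01 with EHMT2 siRNA. The one member above 0 was NUSAP1 (0.62), which shares 62.2% of its exonic bases with a readthrough gene, followed by PRC1 (-0.01) and NUF2 (-0.10). For the same 50 genes the median was -0.47 with control siRNA and 0.59 without transfection.

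Genes of DNA replication were displaced the same way. Of 46 measured members 4 were at least 2-fold lower, 0 were higher and 43 were below 0, with a median of -0.33. The 4 were subunits of DNA polymerases, namely POLA2 (1.01 FPKM in resistant and 4.27 FPKM in parental cells, ratio -1.39), POLE (5.12 and 13.5 FPKM in resistant and parental cells, -1.25), POLD1 (6.72 and 15.3 FPKM in resistant and parental cells, -1.08) and POLE2 (2.61 and 6.48 FPKM in resistant and parental cells, -1.05). POLA2 shares 35.1% of its exonic bases with another gene. Among the highest were RFC1 (0.40), RPA2 (0.28) and ORC2 (0.14). Of 37 measured homologous recombination and Fanconi genes, FANCA, a core complex subunit, was at 5.08 FPKM in resistant and 14.4 FPKM in parental cells (-1.34), and XRCC2, a recombination factor, was at 1.25 FPKM in resistant and 3.97 FPKM in parental cells (-1.14). The median of the 37 was -0.38, 30 were below 0, and NBN stood highest at 0.60. PIF1, a DNA helicase, was at 1.89 FPKM in resistant and 8.05 FPKM in parental cells (-1.65). With control siRNA the replication and recombination medians of the same genes were -0.49 and -0.29, and without transfection they were 0.56 and 0.39.

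Clustered histone genes, whose messages lack poly(A) tails in dividing cells and are only partly caught by libraries that select poly(A), were low. Of 19 measured, 18 had a ratio below 0 and the median was -0.49, with 1 of them, HIST1H1E, at 0.388 FPKM in resistant and 1.98 FPKM in parental cells (-1.10). HIST1H1C (0.02) and HIST1H2BD (-0.03), at 25 FPKM or more in both libraries, stood near 0. The same 19 genes had a median of 0 with control siRNA and of 0.63 without transfection. In the control siRNA pair 8 genes of the list were measured, 4 above and 4 below 0. Of 22 measured G1/S cyclins, CDKs and inhibitors 0 were 2-fold apart. The inhibitors CDKN1C (0.62), CDKN2A (0.57) and CDKN1B (0.24) were the highest of that list, and CDK6 (-0.90), E2F7 (-0.73) and CDKN2C (-0.47) the lowest. CDKN1A, the p53-induced inhibitor p21, was at 101 FPKM in resistant and 108 FPKM in parental cells with EHMT2 siRNA (-0.10), 117 and 85.5 FPKM in resistant and parental cells with control siRNA, and 151 and 74.4 FPKM in resistant and parental untransfected cells. Other p53 targets were spread, with GADD45A (0.81), PHLDA3 (0.71) and SESN2 (0.62) highest, and POLH, a translesion polymerase (-1.13), TNFRSF10C (-1.09) and the death receptor FAS (-0.90) lowest among 32 measured, whose median was -0.17.

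Genes of the fluoropyrimidine pathway were less than 2-fold apart with EHMT2 siRNA. TYMS, thymidylate synthase and the main target of the drug, was at 24.6 FPKM in resistant and 42.1 FPKM in parental cells with EHMT2 siRNA (-0.76), 61.2 and 92.4 FPKM in resistant and parental cells with control siRNA, and 294 and 46.1 FPKM in resistant and parental untransfected cells. The high TYMS value was thus confined, among these 6 libraries, to untransfected resistant cells. TYMS lies on chromosome 18, of whose measured genes 27.0% were at least 2-fold higher in resistant cells without transfection (159 genes, median 0.32), against 0.641% with EHMT2 siRNA (156 genes, median -0.04) and 2.56% with control siRNA (156 genes, median 0.06). The part of this in the TYMS value was not tested. TYMS shares 46.6% of its exonic bases with other genes, among them ENOSF1, which lies on the other strand and was at 5.47 FPKM in resistant and 9.81 FPKM in parental cells with EHMT2 siRNA. TK1, the thymidine salvage kinase, was at 11.6 and 21.4 FPKM in resistant and parental cells (-0.83), and RRM2, the regulatory subunit of ribonucleotide reductase, at 22.02 and 36.5 FPKM in resistant and parental cells (-0.70). Of the enzymes that activate the drug, UMPS was at 5.16 FPKM in resistant and 5.48 FPKM in parental cells (-0.07), UPP1 at 10.3 and 9.63 FPKM in resistant and parental cells (0.08) and TYMP at 25.1 and 22.7 FPKM in resistant and parental cells (0.14). DPYD, which breaks the drug down, was listed at 0.603 FPKM in resistant cells and 0 in parental cells and was not measured. Across 20 thymidylate and deoxynucleotide genes the median was -0.13, with TK2 (0.87), NME2 (0.58) and DGUOK (0.50) highest. Across 14 measured genes of uptake, activation and breakdown it was 0.08, with a change of sign to -0.05 without mitochondrial DNA genes, and NT5C (0.58), NT5E (0.54) and CMPK1 (0.26) stood highest and UCKL1 (-0.29), SLC29A1 (-0.27) and UCK1 (-0.15) lowest.

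Among drug efflux transporters, ABCC2 (MRP2) was lower in resistant cells in each pair. It was at 11.5 FPKM in resistant and 25.3 FPKM in parental cells with EHMT2 siRNA (-1.08), 5.23 and 14.1 FPKM in resistant and parental cells with control siRNA, and 3.04 and 17.1 FPKM in resistant and parental untransfected cells. The highest resistant value lay under the lowest parental value. ABCA7 (-0.91) and ABCC10 (-0.78) were the next lowest of 13 measured transporters, and ABCG1 (0.92), ABCA3 (0.50) and ABCC1 (0.07) the highest. No uracil excision or mismatch repair gene of 21 measured was 2-fold apart, with APEX1 (0.59), PMS2 (0.26) and PMS1 (0.22) at the top and LIG1 (-0.51) and FEN1 (-0.45) among the lowest.

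Interferon-stimulated genes were modestly higher in resistant cells with EHMT2 siRNA. Type I interferon acts through STAT proteins and IRF9 on promoters with a GAAA repeat, and the products restrict viral replication. Sequence around a match to GAAANNGAA is shown for 3 members, from RefSeq (GRCh38.p14), upstream of the start on the strand of the gene, with the match, on either strand, in capitals.
BST2 (chr19:17405742-17405770, minus strand): tcctttctggGAAACTGAAACTGAAaacc
ISG20 (chr15:88638937-88638965, plus strand): taacaaactaGAAACTGAAacagggtcgg
IFIT3 (chr10:89327832-89327860, plus strand): gccgttaggtTTCATTTTCctcctcccaa
The BST2 stretch holds 2 overlapping matches and lies in exons of MVB12A and BISPR, IFIT3 has a second match elsewhere in its promoter, and the ISG20 stretch lies in an exon of longer ISG20 transcripts in GENCODE 29. A match was found for 20 of 32 members with a promoter sequence (62.5%), against 5.17% of measured genes with one, 7.06% of all 27305 promoters, 3.91% of the genes at least 2-fold higher in resistant cells and 5.56% of those at least 2-fold lower.

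Of 43 measured interferon-stimulated genes 6 were at least 2-fold higher with EHMT2 siRNA, 0 were lower and 39 were above 0, with a median of 0.34. BST2 (tetherin) was at 8.35 FPKM in resistant and 2.201 FPKM in parental cells with EHMT2 siRNA (1.55), 2.45 and 0.944 FPKM in resistant and parental cells with control siRNA, and 10.9 and 5.69 FPKM in resistant and parental untransfected cells. ISG20, an RNA exonuclease, was at 7.73 and 2.002 FPKM in resistant and parental cells with EHMT2 siRNA (1.54). OAS1, listed under AC004551.1, was at 2.16 FPKM in resistant and 0 in parental cells. UBA7, which activates ISG15 (1.36), the transcription factor IRF1 (1.11) and IFI35 (1.03) were also at least 2-fold higher. In this list STAT2 (-0.30), TRIM14 (-0.30), a signalling adaptor, and IFI27 (-0.38) stood lowest. The same members had medians of 0.18 with control siRNA and 1.15 without transfection, where IFI6 was at 258 FPKM in resistant and 18.1 FPKM in parental cells, against 43.4 and 27.97 FPKM in resistant and parental cells with EHMT2 siRNA. The gap between lines for IFI6, a gene chosen after its values were seen, was thus smaller with EHMT2 siRNA than without transfection. The list median was also smaller with control siRNA (0.18) than without transfection (1.15), so a smaller gap was not particular to EHMT2 siRNA. None of these differences was tested.

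APOBEC3G, an antiviral cytidine deaminase that interferon induces, was among the most different genes. It was at 7.84 FPKM in resistant and 0.286 FPKM in parental cells with EHMT2 siRNA (2.78), 16.9 FPKM in resistant and 0 FPKM in parental cells with control siRNA, and 4.59 and 1.21 FPKM in resistant and parental untransfected cells, so the lines did not overlap. Among 20 measured NF-kB targets and cytokines, the mitochondrial superoxide dismutase SOD2 was at 52.7 FPKM in resistant and 20.1 FPKM in parental cells with EHMT2 siRNA (1.35) and at 27.4 and 34.4 FPKM in resistant and parental cells with control siRNA. LCN2 (1.31) and the pathway inhibitors NFKBIA (1.08) and TNFAIP3 (1.03) were also at least 2-fold higher. The list was mixed, with 12 members above 0, 8 below and a median of 0.22 with EHMT2 siRNA. The same members had medians of 0.43 with control siRNA and -0.07 without transfection. ICAM1, an adhesion receptor for leukocytes, was listed at 0 in all 3 resistant libraries and at 2.57, 1.48 and 2.70 FPKM in parental cells with EHMT2 siRNA, with control siRNA and untransfected. Of 19 measured genes of antigen presentation, PSME1, a proteasome activator, was at 297 FPKM in resistant and 148 FPKM in parental cells (1.00). NLRC5, which drives MHC class I transcription, was at 1.70 and 5.47 FPKM in resistant and parental cells (-1.26), and HLA-DRB1 at 0.325 and 2.02 FPKM in resistant and parental cells (-1.19), while PSMB9, an immunoproteasome subunit, had 0.68.

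Feedback genes of the ERK pathway were higher in resistant cells in both siRNA pairs. ERK signalling induces dual specificity phosphatases that in turn switch it off. DUSP6 was at 108 FPKM in resistant and 29.1 FPKM in parental cells with EHMT2 siRNA (1.86), 205 and 61.7 FPKM in resistant and parental cells with control siRNA, and 113 and 200 FPKM in resistant and parental untransfected cells. DUSP5 (1.02), PHLDA1 (1.27) and the ETS factor ETV1 (1.27) were the other members at least 2-fold higher among 23 measured, of which 19 were above 0, with a median of 0.45, and DUSP7 (-0.52), BRAF (-0.22) and CCND1 (-0.08) stood lowest. DUSP6 shares 40.5% of its exonic bases with another gene. ERRFI1, an inhibitor of EGFR, was at 187 FPKM in resistant and 89.3 FPKM in parental cells (1.06), whereas ERBB2 (-0.68) and ERBB3 (-0.57) were the lowest of 10 measured EGFR family receptors and ligands. The growth factor receptor FGFR3 was at 6.16 and 19.8 FPKM in resistant and parental cells (-1.54), and TNS4, a focal adhesion protein, at 3.41 and 11.8 FPKM in resistant and parental cells (-1.54).

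Of 28 measured AP-1 and immediate early genes, EGR1 was the one at least 2-fold higher, at 45.04 FPKM in resistant and 12.7 FPKM in parental cells with EHMT2 siRNA (1.75), and NR4A1 the one at least 2-fold lower, at 4.36 and 10.3 FPKM in resistant and parental cells (-1.07). FOS was at 8.07 FPKM in resistant and 4.71 FPKM in parental cells with EHMT2 siRNA (0.67), 4.93 and 14.99 FPKM in resistant and parental cells with control siRNA (-1.43), and 237 and 345 FPKM in resistant and parental untransfected cells (-0.54). The 4 transfected libraries all lay far under the untransfected ones for FOS. The median of the 28 was 0.36 with EHMT2 siRNA, 0.68 with control siRNA and -0.34 without transfection. WWTR1 (TAZ), the paralogue of YAP, was at 33.7 and 15.6 FPKM in resistant and parental cells with EHMT2 siRNA (1.06). It was the only one of 23 measured YAP and TEAD genes 2-fold apart. Of 23 measured TGF-beta genes, ID1 (0.85) was among the highest, and ID2 (-2.03) and SMAD7 (-1.27) were at least 2-fold lower.

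Hypoxia and glycolysis genes were mostly higher in resistant cells with EHMT2 siRNA, though for glycolysis the median changed sign under quantile normalisation. ALDOC, an aldolase, was at 76.9 FPKM in resistant and 17.8 FPKM in parental cells with EHMT2 siRNA (2.05), 32.3 and 11.3 FPKM in resistant and parental cells with control siRNA (1.44), and 26.2 and 20.5 FPKM in resistant and parental untransfected cells (0.34). HIF1A, the oxygen-regulated transcription factor, was at 88.5 and 43.4 FPKM in resistant and parental cells with EHMT2 siRNA (1.01), 92.9 and 40.3 FPKM in resistant and parental cells with control siRNA, and 45.9 and 45.3 FPKM in resistant and parental untransfected cells. The collagen crosslinker LOXL2 was at 38.8 and 16.3 FPKM in resistant and parental cells with EHMT2 siRNA (1.21). Of 22 measured HIF targets outside glycolysis 18 were above 0, with a median of 0.37 and EGLN3 lowest at -0.69. Of 24 glycolytic enzymes and transporters 17 were above 0, with a median of 0.26 that became -0.03 under quantile normalisation, and with HK2 (0.96) and PKM (0.73) next to ALDOC and PFKFB3 (-0.29), SLC2A1 (-0.26) and SLC16A1 (-0.23) lowest. With control siRNA 12 of the 24 were above and 12 below 0, with a median of 0.006, and without transfection the median was 0.38. Among 27 measured NRF2 targets, PGD of the pentose phosphate pathway was at 127 and 60.6 FPKM in resistant and parental cells (1.06), and the median was 0.19.

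Messages of mitochondrial DNA were lower and those of cytosolic ribosomal proteins higher in resistant cells with EHMT2 siRNA. All 13 mitochondrial messages had a ratio below 0 with EHMT2 siRNA, with a median of -0.56, against -1.28 with control siRNA and -0.87 without transfection, and 0 of them were 2-fold apart with EHMT2 siRNA. MT-CYB, a subunit of complex III, was at 1435 FPKM in resistant and 2533 FPKM in parental cells with EHMT2 siRNA (-0.82), 1438 and 3618 FPKM in resistant and parental cells with control siRNA, and 2187 and 5803 FPKM in resistant and parental untransfected cells. MT-ND1 of complex I was at 1939 and 3418 FPKM in resistant and parental cells with EHMT2 siRNA (-0.82). MT-ND5 had -0.86, and MT-CO1 (-0.19), MT-ND3 (-0.21) and MT-CO2 (-0.36) were nearest to 0. Without transfection 11 of the 13 were below 0, whereas MT-ND5 (0.30) and MT-ND6 (0.48) were above 0. After quantile normalisation, which gives the top ranks of every library the same values, the median of the 13 was 0. The 72 nuclear genes of the respiratory chain had a median of 0.13, which was -0.002 after quantile normalisation and -0.008 without mitochondrial DNA genes, and 0 were 2-fold apart. COX4I1 (0.70) stood highest and NDUFC2 (-0.74) lowest.

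Of 79 ribosomal protein genes 77 were above 0 with EHMT2 siRNA, 1 was at least 2-fold higher and 0 were lower, with a median of 0.35, against 0.57 with control siRNA and -1.07 without transfection. The median with EHMT2 siRNA was 0.06 after quantile normalisation. RPL28 was at 219 FPKM in resistant and 106 FPKM in parental cells with EHMT2 siRNA (1.04), 340 and 212 FPKM in resistant and parental cells with control siRNA, and 176 and 340 FPKM in resistant and parental untransfected cells. RPL14 (0.92) and RPL11 (0.78) followed, and 2 members were below 0, among them RPL34 (-0.08). EEF1A1, the elongation factor that brings tRNA to the ribosome, was at 1980 and 1115 FPKM in resistant and parental cells (0.83), while EIF3I was at 103 and 175 FPKM in resistant and parental cells (-0.76). The 40 ribosome biogenesis genes had a median of -0.11, with BOP1 (-0.86), NOP2 (-0.73) and POLR1A (-0.68) lowest.

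**Figure D4:**
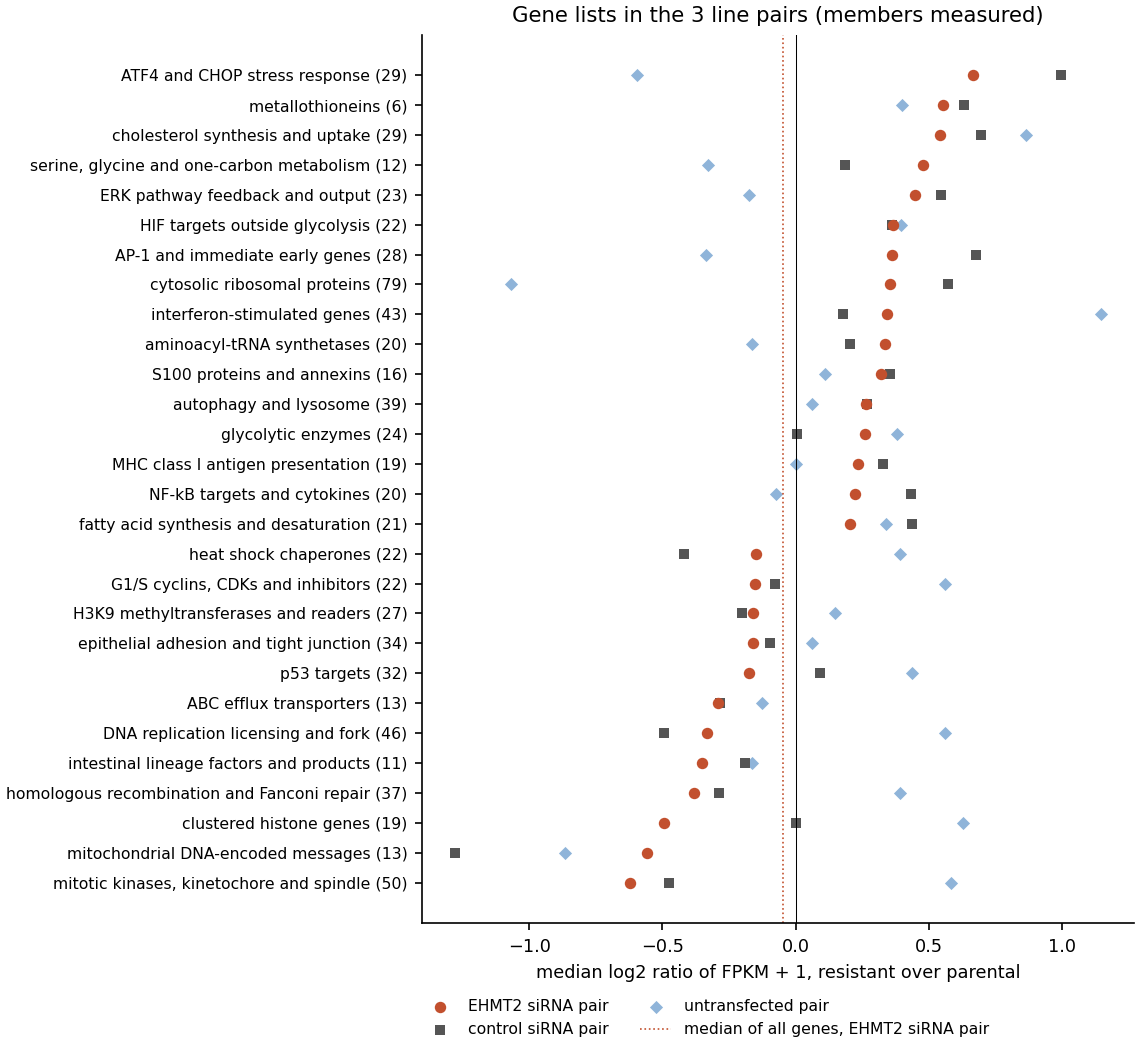
Median log2 ratio of FPKM + 1, resistant over parental, of 28 gene lists in the EHMT2 siRNA pair (red), the control siRNA pair (grey) and the untransfected pair (blue), over the members measured in the EHMT2 siRNA pair (number in brackets). The stress response, ribosomal protein, mitotic and replication lists lie on the same side of 0 in both siRNA pairs and on the other side without transfection, while the cholesterol list lies above 0 in each pair (0.54, 0.70 and 0.87).

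Some intestinal lineage genes were low in resistant cells. With EHMT2 siRNA 8 of 11 measured were below 0 and 3 above, against 55% of all measured genes below 0. CDX2, also in this list, was at 4.57 FPKM in resistant and 4.58 FPKM in parental cells with EHMT2 siRNA (-0.005). HNF4A, a transcription factor of the gut epithelium, was listed at 0 in all 3 resistant libraries. In parental cells it was at 1.95 FPKM with EHMT2 siRNA, 1.69 FPKM with control siRNA and 1.68 FPKM untransfected. ID2 (chr2:8678845-8684453), which blocks basic helix-loop-helix proteins, was at 7.57 FPKM in resistant and 34.1 FPKM in parental cells with EHMT2 siRNA (-2.03), 5.65 and 28.3 FPKM in resistant and parental cells with control siRNA, and 28.5 and 67.2 FPKM in resistant and parental untransfected cells. It was lower in the resistant library of each pair, though its untransfected resistant value was as high as a transfected parental one. HNF4A and ID2 were among the 3 members at least 2-fold lower of 11 measured, while HES1 (0.42), KLF4 (0.41) and GFI1 (0.10) were the members above 0, and the median was -0.35, or 0.0046 when genes under 5 FPKM were left out. Epithelial markers were present in both libraries, with 9 of 10 measured and VIL1 at 0, KRT18 at 1053 FPKM in resistant and 997 FPKM in parental cells, and KRT8 at 992 FPKM in resistant and 1076 FPKM in parental cells. EPCAM was at 70.9 FPKM in resistant and 103 FPKM in parental cells. Of the markers of other cell types, COL1A1 (4.92 FPKM in resistant and 9.79 FPKM in parental cells) and CD68 (1.47 and 0.372 FPKM in resistant and parental cells), which shares 85.8% of its exonic bases with other genes, were the 2 measured out of 22.

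Adhesion and matrix genes went both ways. CLDN3, a tight junction protein, was at 6.34 FPKM in resistant and 2.31 FPKM in parental cells with EHMT2 siRNA (1.15), and the desmosomal cadherin DSC3 at 0.453 and 2.73 FPKM in resistant and parental cells (-1.36), among 34 measured junction genes with a median of -0.16. PLAU, the urokinase protease, was at 34.5 and 14.4 FPKM in resistant and parental cells (1.20), and the matrix proteins LAMA3 (0.430 and 2.51 FPKM in resistant and parental cells, -1.30) and AGRN (54.2 and 118 FPKM in resistant and parental cells, -1.11) were at least 2-fold lower. GSN, the actin-severing gelsolin, was at 130 and 53.8 FPKM in resistant and parental cells with EHMT2 siRNA (1.26) and at 25.9 and 52.5 FPKM in resistant and parental untransfected cells. KRT23 was at 14.9 and 5.58 FPKM in resistant and parental cells with EHMT2 siRNA (1.28) and at 0.303 and 24.6 FPKM in resistant and parental untransfected cells. In both genes the untransfected pair had the opposite order of lines.

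S100A4, a calcium-binding protein linked to cell motility, was the most abundant of the 15 highest genes. It was at 408 FPKM in resistant and 77.2 FPKM in parental cells with EHMT2 siRNA (2.39), 443 and 116 FPKM in resistant and parental cells with control siRNA, and 119 and 216 FPKM in resistant and parental untransfected cells. S100A6 was at 2161 and 989 FPKM in resistant and parental cells with EHMT2 siRNA (1.13), and of 16 measured S100 and annexin genes 14 were above 0, with S100A14 lowest at -0.66. The zinc-binding metallothionein MT2A was at 902 and 410 FPKM in resistant and parental cells (1.13), the one member at least 2-fold apart of 6 measured. NRP1, a receptor for semaphorins and VEGF, was at 19.1 FPKM in resistant and 5.65 FPKM in parental cells with EHMT2 siRNA (1.60), 19.4 and 2.94 FPKM in resistant and parental cells with control siRNA, and 6.61 and 1.71 FPKM in resistant and parental untransfected cells, with no overlap between the lines. Its ligand SEMA3A (1.28) and the semaphorin signalling protein DPYSL2 (1.10) were at least 2-fold higher with EHMT2 siRNA too. Of 25 measured semaphorin, neuropilin and axon guidance genes, 3 were at least 2-fold higher and 0 lower in that pair. Of the 25, 11 were above 0 and 14 below, with a median of -0.11.

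Other genes kept their side in all 3 pairs. SERPINA1, alpha-1 antitrypsin, was at 13.04 FPKM in resistant and 1.95 FPKM in parental cells with EHMT2 siRNA (2.25), 14.8 and 2.35 FPKM in resistant and parental cells with control siRNA, and 16.5 and 6.63 FPKM in resistant and parental untransfected cells, so that the lines did not overlap. Lower in resistant cells throughout were the protocadherin PCDH7 (2.24 FPKM in resistant and 7.24 FPKM in parental cells with EHMT2 siRNA, -1.34), which was listed at 0 in resistant and 33.1 FPKM in parental untransfected cells, the hyaluronan synthase HAS3 (20.7 and 38.1 FPKM in resistant and parental cells, -0.85), the netrin receptor NEO1 (-0.88) and TRNP1 (-0.90). In all, 12 genes were at least 2-fold higher and 8 at least 2-fold lower in each of the 3 pairs. Of the 184 higher and 185 lower genes with EHMT2 siRNA, 105 and 156 reached 2-fold on that side in no other pair. Genes just under 2-fold or under 1 FPKM in the other pairs are among them. Of called genes measured in both siRNA pairs, 92.6% of the higher and 88.8% of the lower kept their sign with control siRNA.

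The EHMT2 siRNA pair lay closer to the control siRNA pair than to the untransfected pair, with no library shared between them. Of the 184 genes at least 2-fold higher with EHMT2 siRNA, 73 were so with control siRNA, which is 39.7% of the first list and 39.5% of the second, and 5 were at least 2-fold lower. Of the 185 lower genes 26 were so with control siRNA, 14.1% of the first list and 23.4% of the second, and 3 were at least 2-fold higher. With no transfection 18 of the 184 higher genes (9.78%, and 4.41% of the untransfected list) and 11 of the 185 lower genes (5.95% and 2.39%) kept their side at 2-fold, while 36 and 27 were at least 2-fold apart on the other side. Over all measured genes, 1.6% were at least 2-fold higher and 0.96% lower with control siRNA, and 3.48% and 3.92% without transfection. Among called genes measured in both pairs, 92.6% of the higher and 88.8% of the lower had the same sign with control siRNA, and 38.3% and 27.1% had it without transfection. Of all genes measured in both pairs, 48.1% were above and 51.9% below 0 with control siRNA, and 56.6% and 43.4% without transfection. Transfection, library and any difference between the resistant cells behind the 2 library names cannot be told apart here.

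**Figure D5:**
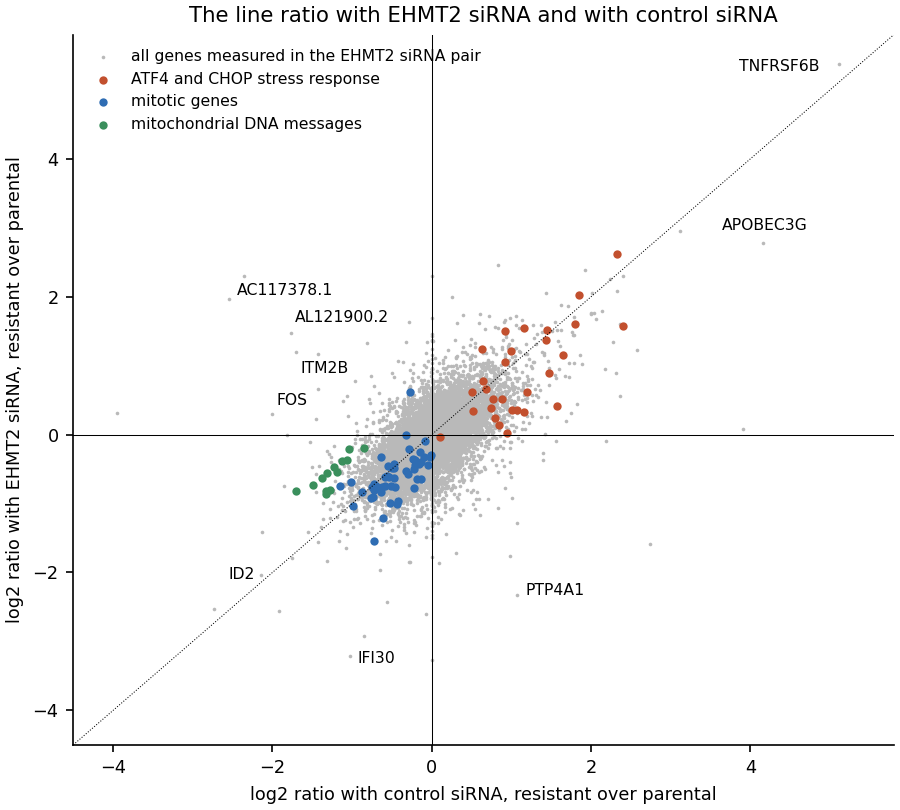
Log2 ratio of FPKM + 1, resistant over parental, with EHMT2 siRNA (vertical) against control siRNA (horizontal) for each gene measured in the EHMT2 siRNA pair, with the dotted line marking equal ratios. Stress response genes (red) lie to the upper right, mitotic (blue) and mitochondrial DNA genes (green) to the lower left, and AC117378.1 and PTP4A1 lie on opposite sides in the 2 pairs.

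Several of the largest differences with EHMT2 siRNA lay on genes whose exons are shared with others, so that reads could be assigned to either. TNFRSF6B, a decoy receptor for FAS ligand (chr20:63696651-63698684), had the highest ratio, 5.37. It was at 52.0 FPKM in resistant and 0.283 FPKM in parental cells with EHMT2 siRNA, 71.4 and 1.10 FPKM in resistant and parental cells with control siRNA, and 21.97 and 67.1 FPKM in resistant and parental untransfected cells. All its exonic bases are shared, and RTEL1-TNFRSF6B, the readthrough gene over it, was at 17.2 FPKM in resistant and 11.6 FPKM in parental cells with EHMT2 siRNA. The readthrough gene INO80B-WBP1 was at 6.72 FPKM in resistant and 0 in parental cells, while INO80B was at 7.13 and 10.04 FPKM in resistant and parental cells and WBP1 at 19.3 and 17.3 FPKM in resistant and parental cells. AC087721.2, a readthrough of NUSAP1, was at 1.92 and 21.1 FPKM in resistant and parental cells (-2.92), while NUSAP1 was at 25.8 and 16.5 FPKM in resistant and parental cells. PIK3R2 was at 0 in resistant and 5.07 FPKM in parental cells, and its neighbour IFI30 at 0.294 FPKM in resistant and 11.05 FPKM in parental cells (-3.22). The readthrough AC007192.1 over both was at 6.57 and 5.74 FPKM in resistant and parental cells. AC253536.7 (-3.27) was at 0.280 and 11.3 FPKM in resistant and parental cells, and DDT, which it overlaps, at 43.3 and 20.1 FPKM in resistant and parental cells. In the NUSAP1 and DDT cases the overlapping genes had ratios of opposite sign.

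The same holds for most genes whose line ratio differed most between EHMT2 siRNA and control siRNA. PTP4A1, a phosphatase, was at 3.45 FPKM in resistant and 21.3 FPKM in parental cells with EHMT2 siRNA (-2.33) and at 4.55 and 1.64 FPKM in resistant and parental cells with control siRNA (1.07). It shares 79% of its exonic bases with AL135905.2, which was at 57.9 FPKM in resistant and 40.9 FPKM in parental cells with EHMT2 siRNA. C21orf59-TCP10L, AL662899.2 and PTGES3L-AARSD1 also had lower line ratios with EHMT2 siRNA than with control siRNA, by 2.74, 1.95 and 1.92, and share 96% to 100% of their exonic bases. AC117378.1, AC023055.1, AL121900.2 and AC025165.3 had higher ones, by 4.51, 4.26, 3.25 and 1.74, and share 90.1% to 100%, and PDXP (by 2.30) shares 62.5%. Under 25% of exonic bases are shared by FOS (by 2.099) and by CPT1C and ITM2B. CPT1C, a brain form of carnitine palmitoyltransferase, was at 10.1 FPKM in resistant and 2.58 FPKM in parental cells with EHMT2 siRNA (1.64) and at 3.09 and 3.97 FPKM in resistant and parental cells with control siRNA (-0.28). ITM2B was at 83.4 and 48.3 FPKM in resistant and parental cells with EHMT2 siRNA (0.77) and at 12.6 and 25.6 FPKM in resistant and parental cells with control siRNA (-0.96). In all, 38 of the 184 higher and 43 of the 185 lower genes share at least 25% of their exonic bases.

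Of the remaining genes with the highest or lowest ratios, TUSC3, a subunit of the oligosaccharyltransferase, was at 8.20 FPKM in resistant and 0.675 FPKM in parental cells with EHMT2 siRNA (2.46), 1.23 and 0.257 FPKM in resistant and parental cells with control siRNA, and listed at 0 in both untransfected libraries. The syntrophin SNTB1 was at 14.6 and 2.67 FPKM in resistant and parental cells with EHMT2 siRNA (2.09), the glutamate transporter SLC1A1 at 29.98 and 6.50 FPKM in resistant and parental cells (2.05), and the secreted protein CTHRC1 at 27.5 and 6.73 FPKM in resistant and parental cells (1.88). CTHRC1 was at 0.201 FPKM in resistant and 5.28 FPKM in parental untransfected cells, the opposite order. The imprinted gene NNAT was at 1.70 and 8.73 FPKM in resistant and parental cells with EHMT2 siRNA (-1.85) and at 0.807 FPKM or less in the other 4 libraries. AC004922.1 (-2.42), HSPE1-MOB4 (-1.97) and AC117378.1 (1.96) overlap other genes by 92% or more.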

How the data were processed

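RNA-seq libraries were prepared using TruSeq RNA v2, according to the labels' protocols. Per the submitters' processing notes, the tools were HISAT2 2.2.1 and StringTie 2.1.1, with cutadapt 4.9 and FastQC 0.12.1, on build GRCh38. Annotation, strand setting and read numbers are not given in the sources used, so depth is unknown and no counting interval is given. The authors deposited FPKM, 1 table per library, with 19957 rows each. Values under 0.172 to 0.264 are listed as 0. For symbols with several rows the one of highest mean was kept, leaving 19942, of which 19887 were found in GENCODE 29 for coordinates and shared exonic bases.

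Log2 ratios of FPKM + 1 were computed with Python 3.11.15, pandas 2.3.3 and numpy 2.4.6, checked on simulated data. Genes named, among those at 5 FPKM or more in either library of the pair, are the 15 highest and lowest ratios, the 8 highest and lowest by difference from the control siRNA pair and by the smallest ratio over 3 pairs, 10 fixed genes, and of each list the members 2-fold apart and the 3 highest and lowest, of which some are left out of the text. The comparison, its members and the 49 gene lists were chosen with earlier results of these data known. Alternatives were another pseudocount, other filters and thresholds, rescaling, centring, quantile normalisation, and leaving out overlapping or mitochondrial DNA genes. Promoters are from RefSeq (GRCh38.p14), 250 bases before the start, matched by symbol. Some genes that the rule names are not reported here.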

Additional observations from a re-analysis of the deposited data

Results flagged for a closer look

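Several results had opposite directions in different line pairs. None of these differences was tested, since each pair has 1 library a side. Between EHMT2 siRNA and control siRNA, the line ratio was 1.96 and -2.55 for AC117378.1, -2.33 and 1.07 for PTP4A1, and 1.48 and -1.77 for AL121900.2, all 3 of which share at least 79% of their exonic bases with other genes. AL121900.2 was at -1.36 in the untransfected pair.

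Between EHMT2 siRNA and no transfection, the ratio was 5.37 and -1.57 for TNFRSF6B, 2.95 and -1.88 for INO80B-WBP1, 2.62 and -1.47 for CHAC1, 2.03 and -1.01 for ASNS, 1.88 and -2.39 for CTHRC1, 1.64 and -1.61 for CPT1C, and -2.42 and 1.34 for AC004922.1. The same held for medians of lists. They were 0.67 with EHMT2 siRNA and -0.60 without transfection for the stress response, 0.48 and -0.33 for serine and one-carbon genes, 0.36 and -0.34 for AP-1 and immediate early genes, and 0.35 and -1.07 for cytosolic ribosomal proteins. They were -0.33 with EHMT2 siRNA and 0.56 without transfection for DNA replication, -0.62 and 0.59 for mitosis, -0.38 and 0.39 for homologous recombination, and -0.49 and 0.63 for clustered histones, whose median with control siRNA was 0.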

How the results depend on the processing

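The counts of genes at least 2-fold higher and lower in resistant cells, 184 and 185, moved with the pseudocount and the threshold. They were 316 and 520 with a pseudocount of 0.1, 715 and 1134 at 1.5-fold, and 14 and 9 at 4-fold. Only genes at 5 FPKM or more gave 134 and 104, and rescaling without mitochondrial DNA genes gave 130 and 331. No filter, rescaling to the same sum, centring on the median, quantile normalisation and leaving out overlapping genes kept both counts within 1.5 times. Leaving out mitochondrial DNA genes moved the medians of 47 of 48 gene lists by more than 0.1, all downward, and quantile normalisation moved 17 of 49 so, besides that of glycolytic enzymes. Other medians also crossed 0, such as that of the nuclear respiratory chain in both settings, as given with their lists. The median of glycolytic enzymes changed sign under quantile normalisation (-0.025) and that of intestinal genes with genes at 5 FPKM or more (0.0046), and that of uracil excision and mismatch repair genes was 0.12 there against -0.15; the cause was not tested. Ratios of the named genes, over the alternatives run for them, were classed as the same 286 times, stronger 9 times and weaker 3 times. None was classed as reversed, but a ratio near 0, such as that of UPP1 (0.08), can change sign on rescaling. No paired analysis was possible because each group holds 1 library and all carry the same replicate number. No library could be left out for the same reason. Since depth is unknown, low values such as 0 against 2 FPKM have no known counting error.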

Other observations

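Some patterns were looked for after the values were seen. Outside the Y chromosome, 3 genes were listed at 0 in all 3 resistant libraries and at 1 FPKM or more in all 3 parental libraries, among them HNF4A and ICAM1, and 0 genes had the reverse pattern. ICAM1 shares 23.6% of its exonic bases with other genes.

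The line ratio moved with the exonic length of a gene in GENCODE 29. With EHMT2 siRNA the median was 0.10 for 1054 genes under 2000 exonic bases, 0.03 for 3219 genes from 2000 to 4000, -0.07 for 5146 genes from 4000 to 8000 and -0.15 for 2504 longer genes. With control siRNA the 4 medians were 0.08, 0.03, -0.03 and -0.08, and without transfection 0.06, 0.03, 0.05 and 0.15. Longer genes thus had lower ratios in both siRNA pairs, and the part of length in the list medians was not tested. By nuclear chromosome, medians with EHMT2 siRNA lay between -0.13 (chromosome 16) and 0.02 (chromosome 4), and the 13 messages of mitochondrial DNA had -0.56. Without transfection chromosome 18 stood apart, with a median of 0.32 and 27.0% of 159 genes at least 2-fold higher in resistant cells, against 3.48% of all genes.

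Proteasome subunits had a median of -0.10 over 31 measured genes, from 0.66 for PSMC1 to -0.53 for PSMD11, and heat shock chaperones -0.15 over 22, from 0.88 for HSPA9, which was at 249.6 FPKM in resistant and 135 FPKM in parental cells, to -0.58 for CHORDC1. Autophagy and lysosome genes had a median of 0.26 over 39 measured genes with 30 above 0, from 0.67 for WIPI1 to -0.92 for the autophagy kinase ULK1. Of the germline genes, which G9a silences in mouse stem cells, 6 were measured, among them the cancer-testis gene MAGEA3 at 55.7 FPKM in resistant and 47.5 FPKM in parental cells, and STAG3 (-1.13) was the one at least 2-fold apart. Other lists with 0 members at least 2-fold apart were the BCL2 family (0.06 over 13 measured, -0.06 without mitochondrial DNA genes) and Wnt targets (0.03 over 17, and -0.01 to -0.11 under 3 other scalings). Mitochondrial ribosomal proteins had a median of 0.07 over 76, or -0.06 without mitochondrial DNA genes, with MRPL53 (-1.09) 2-fold lower.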
